A study of Sus scrofa with 6 samples.

Results

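The Hippo pathway genes and the target genes of its co-activator YAP were examined in porcine granulosa cells (GCs), which surround and nourish the oocyte in the follicle, that had been infected with a lentivirus carrying *RBP4*. The genes were chosen by name from a table of Ensembl pig gene names, and 8 of the 10 listed genes were named there, out of 17950 genes in the deposited values. They are the co-activator *WWTR1*, the transcription factors *TEAD1*, *TEAD2* and *TEAD3*, the kinases *LATS1* and *STK3*, and the targets *CTGF* and *CYR61*, which the names table gives as *CCN2* and *CCN1*. *YAP1* and *LATS2* were paired with no gene by name and were not analysed here. Primary GCs from Landrace pre-pubertal gilts received pLVX-RBP4-IRES-ZsGreen (the pLVX-*RBP4* group) or the same vector without the insert, pLVX-IRES-ZsGreen (the CTRL group), so that cells of both groups were exposed to virus and to the fluorescent marker. RNA was taken 72 h after infection, from 3 biological repetitions per group. The authors deposited 1 FPKM value per gene and group (fragments scaled to transcript length and to the number of mapped fragments), in which the 3 libraries of the group are combined. The spread between repetitions and the number of reads behind each gene's value are therefore unknown here. No test between the groups was possible from these values. The study itself compared the groups with Cuffdiff and reported differentially expressed genes, and those calls were not set against the values here. The study lists more mapped reads for each pLVX-*RBP4* library than for any CTRL library, and these depths were not used here.

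The Hippo pathway is a chain of kinases that restrains tissue growth. STK3 (MST2) and its relative STK4 (MST1) activate the kinases LATS1 and LATS2, which phosphorylate YAP and its relative TAZ, the product of *WWTR1*, and keep them in the cytoplasm. Unphosphorylated YAP and TAZ enter the nucleus and bind the TEAD factors, which carry them to genes such as *CTGF* and *CYR61*. In the ovary the pathway is known as a brake on follicle growth, and it acts on proteins more than on transcript levels, so mRNA values describe its components and its targets but not the phosphorylation of YAP.

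The introduced gene *RBP4*, which encodes a carrier of retinol, had 1.10 FPKM in CTRL cells and 92.3 FPKM in pLVX-*RBP4* cells. None of the 8 Hippo and YAP genes differed between the groups by as much as 1.2-fold. The difference was taken as log2(FPKM + 1) in pLVX-*RBP4* cells minus that in CTRL cells, a scale on which 1.2-fold is 0.26. Values for the 8 genes ran from -0.19 for *TEAD3* to 0.08 for *STK3*, with a median of -0.07. Among the 12382 genes averaging 1 FPKM or more across the groups, 19.6% passed 1.2-fold in either direction, 11.0% upward and 8.63% downward, and 0.953% passed 2-fold. The median of all these genes was 0.0014, and 5% of them lay below -0.33 and 5% above 0.37. Genes with a mean between 20 and 100 FPKM, where 5 of the 8 lie, passed 1.2-fold in 15.9% of cases. These are bulk RNA values, in which fewer cells of a type and less RNA per cell cannot be told apart.

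**Figure D1:**
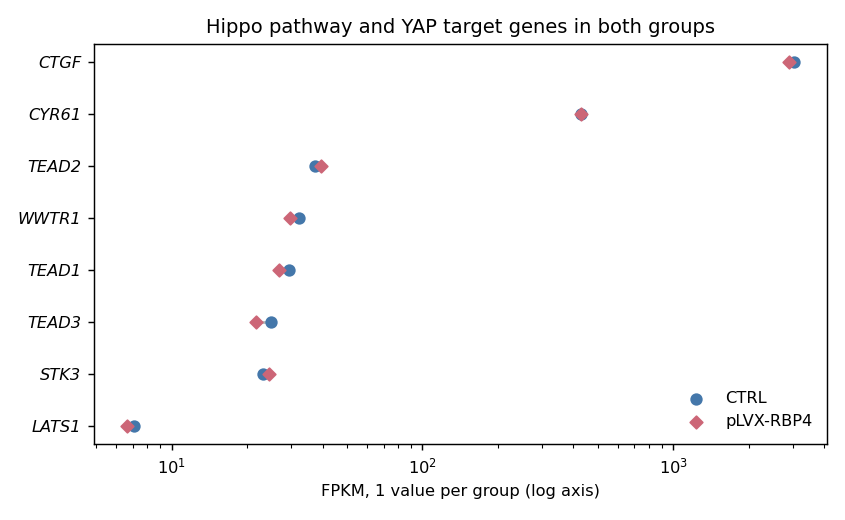
FPKM of the 8 genes on a log axis, with 1 value for the CTRL group (circle) and 1 for the pLVX-RBP4 group (diamond). The symbols of a gene lie close together in every row, while the genes themselves span 7.05 FPKM (LATS1) to 3034 FPKM (CTGF) in CTRL cells.

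Levels differed far more between genes than between groups. FPKM is a value per length of transcript, so the genes were set side by side. How far the annotated transcript lengths affect such a comparison was not checked. In the CTRL group the order from the highest was *CTGF*, *CYR61*, *TEAD2*, *WWTR1*, *TEAD1*, *TEAD3*, *STK3* and *LATS1*. The order was the same in pLVX-*RBP4* cells except that *STK3* stood above *TEAD3*. Whether neighbours among the 5 genes between *TEAD2* and *STK3* differ beyond the spread between repetitions is unknown. The highest of the 8 exceeded the lowest 430-fold in CTRL cells and 435-fold in pLVX-*RBP4* cells.

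*CTGF* (ENSSSCG00000004192) encodes a secreted matricellular protein that binds growth factors and integrins, and it is among the best known targets of YAP and TAZ. It had 3034 FPKM in CTRL cells and 2896 FPKM in pLVX-*RBP4* cells. These values placed it 26th and 34th among the 17950 genes. Its log2 ratio was -0.07, a ratio of 0.955, and its difference had the opposite sign after rescaling to a common sum (0.013). *CTGF* was thus among the most abundant transcripts of both groups, and its values in the groups were within 5% of each other.

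*CYR61* (ENSSSCG00000006940), which encodes the related matricellular protein CCN1, had 429.6 FPKM in CTRL cells and 427.2 FPKM in pLVX-*RBP4* cells. Its ratio was 0.994, the closest to 1 among the 8 genes. The sign of its difference, -0.0080 as deposited, turned after scaling to a common median (0.014) and after rescaling to a common sum (0.071). *CTGF* exceeded *CYR61* 7.06-fold in CTRL cells and 6.78-fold in pLVX-*RBP4* cells, which is the ratio of these targets to each other and does not depend on the scaling.

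*WWTR1* (ENSSSCG00000011704), the gene of TAZ and the single co-activator measured here, had 32.3 FPKM in CTRL cells and 29.5 FPKM in pLVX-*RBP4* cells. The difference of -0.13 lay at the 24.3rd percentile of all genes. It was below 0 under each of the 5 scalings, between -0.24 and -0.05.

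The TEAD factors are the DNA-binding partners of YAP and TAZ. *TEAD2* (ENSSSCG00000025568) was the most abundant, with 37.4 FPKM in CTRL cells and 39.3 FPKM in pLVX-*RBP4* cells, and its difference of 0.07 became -0.05 when the groups were rescaled to a common sum without the highest gene. *TEAD1* (ENSSSCG00000013399) had 29.5 and 26.9 FPKM, a difference of -0.13. For *TEAD3* (ENSSSCG00000001544) the values were 24.9 FPKM in CTRL cells and 21.7 FPKM in pLVX-*RBP4* cells. Its difference of -0.19 was the farthest from 0 among the 8 genes and lay at the 15.7th percentile of all genes.

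*TEAD4* (ENSSSCG00000000736), the remaining gene of the family, was weakly expressed, with 2.48 FPKM in both groups. Added together, the 4 TEAD genes had 94.3 FPKM in CTRL cells and 90.4 FPKM in pLVX-*RBP4* cells. *TEAD2* made up 39.7% of this sum in CTRL cells and 43.5% in pLVX-*RBP4* cells. The share of *TEAD1* was 31.3% and 29.7%, and that of *TEAD3* was 26.4% and 24.1%. Shares within the family do not depend on the scaling of the groups, and the share of *TEAD2* was higher in pLVX-*RBP4* cells by an amount that cannot be set against a replicate error.

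The kinases are the upstream part of the cascade. *STK3* (ENSSSCG00000006074), which encodes the upstream kinase MST2, had 23.1 FPKM in CTRL cells and 24.5 FPKM in pLVX-*RBP4* cells, a difference of 0.08 that became -0.04 when the groups were rescaled to a common sum without the highest gene. *LATS1* (ENSSSCG00000004106), whose product phosphorylates YAP and TAZ directly, had 7.05 and 6.65 FPKM, a difference of -0.07. *STK3* exceeded *LATS1* 3.28-fold in CTRL cells and 3.68-fold in pLVX-*RBP4* cells.

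**Figure D2:**
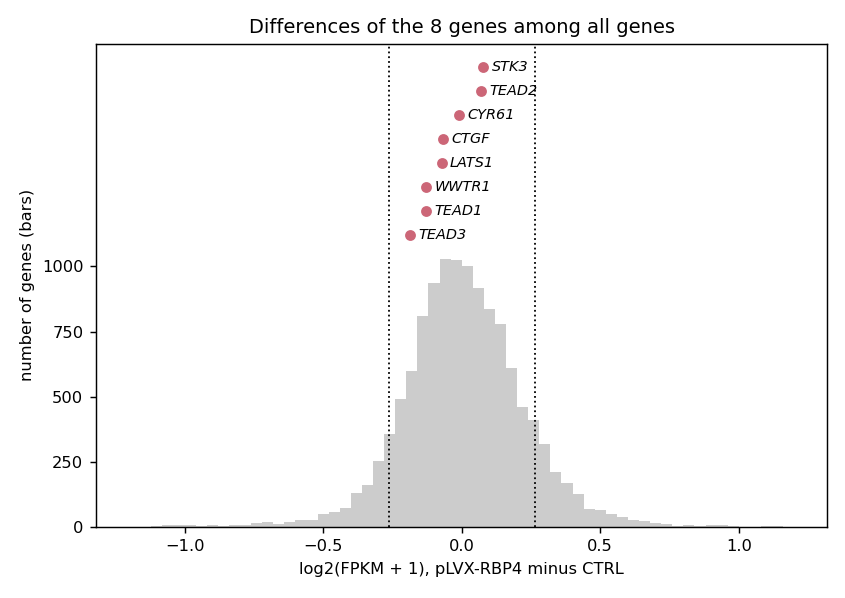
Differences of log2(FPKM + 1), pLVX-RBP4 minus CTRL, with bars for the number of genes in steps of 0.04 among the 12382 genes averaging 1 FPKM or more and a point for each of the 8 genes. Bars outside the plotted range of 1.2 on either side are left out, the height of a point has no meaning, and all 8 points lie between the dotted lines at 1.2-fold.

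The sign of a small difference depended on how the groups were scaled. A single gene without a symbol in the names table, ENSSSCG00000025162, took 35.4% of the summed FPKM in CTRL cells and 25.8% in pLVX-*RBP4* cells, so a scaling by the sum moves with that gene. Of the 8 genes, 6 were below 0 as deposited and after scaling to a common upper quartile. The count was 5 after scaling to a common median, 4 after rescaling to a common sum and 8 when that sum was taken without the highest gene. In the same order, 49.8%, 48.8%, 45.8%, 35.1% and 69.9% of all genes were below 0. The last scaling moved the median of all genes by -0.11. Relative to the median of all genes, the median of the 8 was lower by 0.07 to 0.08 under each of the 5 scalings.

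**Figure D3:**
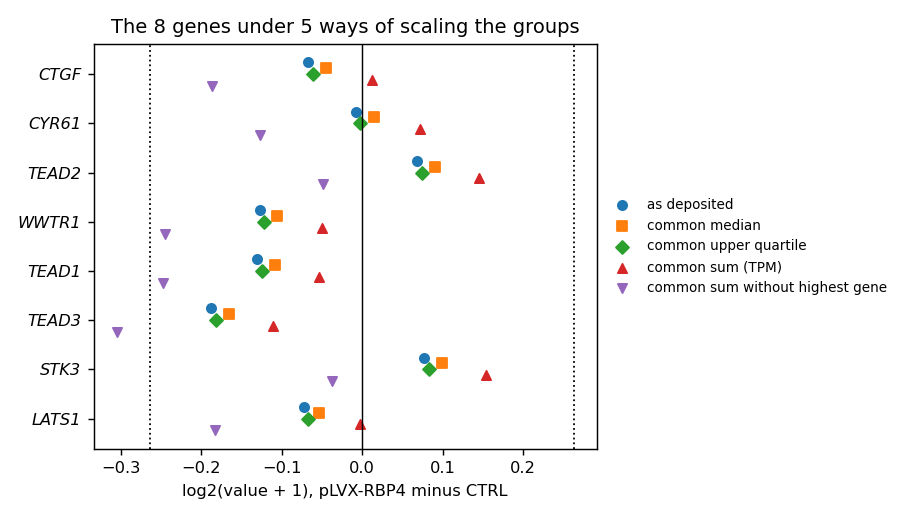
Difference of log2(value + 1), pLVX-RBP4 minus CTRL, of each of the 8 genes under 5 scalings, with dotted lines at 1.2-fold. Only TEAD3 under the common sum without the highest gene (-0.30) passes a line, and the points of CTGF, CYR61, TEAD2 and STK3 fall on both sides of 0.

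The 64 other genes of the pathway were taken from a list arranged by role, and 45 of them were named in the table. Of these, 41 averaged 1 FPKM or more, and 4 of the 41 were lower by at least 1.2-fold in pLVX-*RBP4* cells, none higher. That is 9.76% of the list beside the 19.6% of all genes. The median difference was -0.08, and 30 of the 41 (73.2%) were below 0, beside 49.8% of all genes. After rescaling to a common sum 23 of the 41 (56.1%) were below 0, beside 35.1% of all genes. Past 1.2-fold were then 1 lower and 1 higher gene, beside 22.1% of all genes in either direction. Without the highest gene in that sum 39 (95.1%) were below 0, beside 69.9% of all genes. In that setting 11 were lower and 0 higher past 1.2-fold, beside 26.1% of all genes past it in either direction. The 4 genes past 1.2-fold as deposited were *WWC3*, *MAP4K3*, *MINK1* and *PTPN14*.

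Near the top of the cascade, the partners of the MST kinases and the scaffolds that bring LATS to the membrane had differences from -0.27 to 0.02. *STK4* (MST1) had 10.6 and 9.10 FPKM in CTRL and pLVX-*RBP4* cells, less than *STK3* in both. *SAV1*, the scaffold that joins MST to LATS, was the most abundant of these 7 genes, with 28.1 and 26.4 FPKM. *NF2* (merlin), the membrane-linked tumour suppressor that recruits LATS, had 18.6 and 17.0 FPKM. *WWC3*, of the KIBRA family of scaffolds, had 24.4 FPKM in CTRL cells and 20.1 FPKM in pLVX-*RBP4* cells, a difference of -0.27, just past the limit as deposited and inside it with a common median (-0.25) or a common sum (-0.19). *MOB1B*, an adaptor that helps activate LATS, had 3.89 and 3.95 FPKM.

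MAP4K and TAO kinases activate the cascade beside or above MST. All 6 averaging 1 FPKM or more were lower in pLVX-*RBP4* cells as deposited, with a median of -0.24, beside 49.8% of all genes below 0. After rescaling to a common sum 5 of the 6 were lower, beside 35.1% of all genes, and *TAOK3* had the opposite sign. As deposited *MINK1* and *MAP4K3* passed 1.2-fold, 33.3% of the 6 beside 19.6% of all genes. *MINK1* (MAP4K6) had 37.2 FPKM in CTRL cells and 29.9 FPKM in pLVX-*RBP4* cells, a difference of -0.31. *MAP4K3* had 8.65 and 6.87 FPKM, a difference of -0.29. *MAP4K4*, by far the most abundant, had 120.6 and 103.2 FPKM (-0.22), and *TAOK1* had 3.09 and 2.43 FPKM (-0.25), both inside the limit. Without the added 1, the log2 ratio of *TAOK1* was -0.34, which is past the limit. *MAP4K1* (0.354 and 0.445 FPKM) and *MAP4K2* (0.912 and 1.05 FPKM) had means below 1 FPKM and were higher in pLVX-*RBP4* cells.

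**Figure D4:**
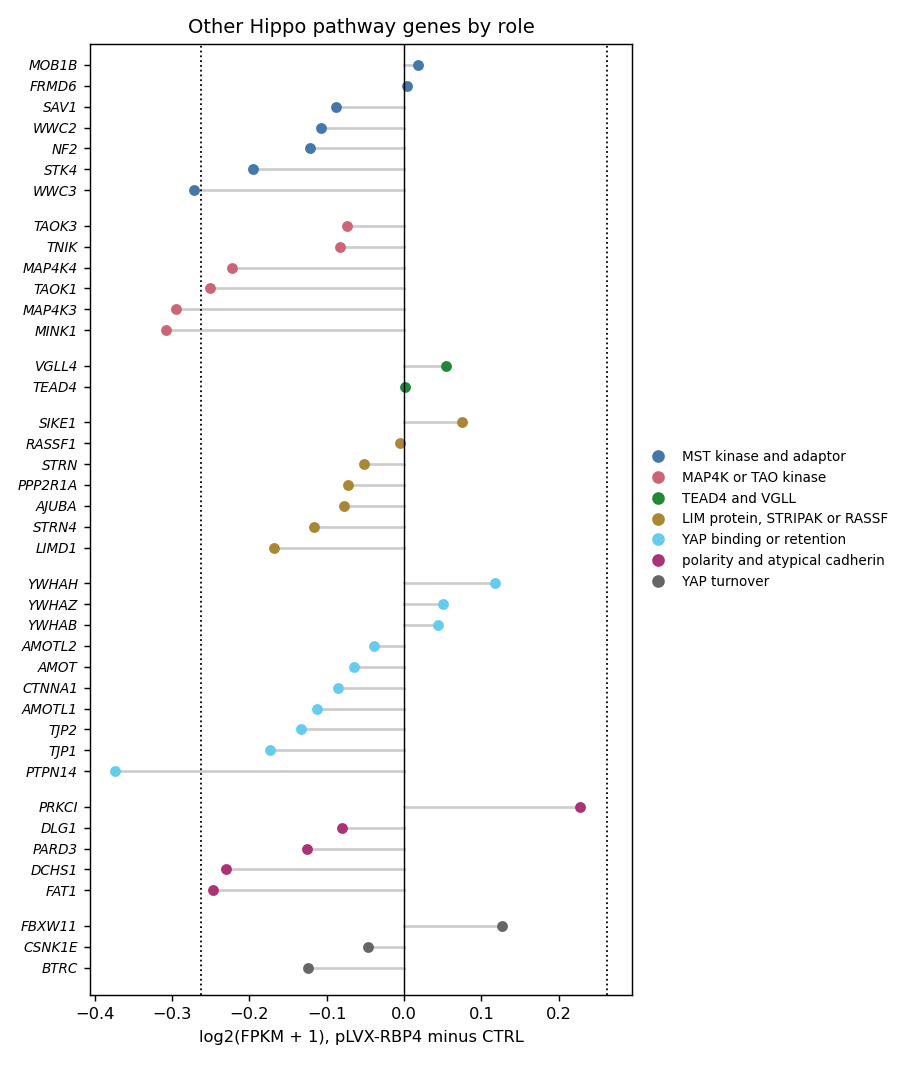
Difference of log2(FPKM + 1), pLVX-RBP4 minus CTRL, of 40 of the 41 other Hippo pathway genes averaging 1 FPKM or more, coloured by role, with dotted lines at 1.2-fold. Only WWC3, MAP4K3, MINK1 and PTPN14 lie past a line, all on the lower side, and the MAP4K or TAO kinases lie below 0 on this scale, TAOK3 turning positive after rescaling to a common sum.

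Proteins that bind YAP or hold it at junctions or in the cytoplasm gave 10 genes, with differences from -0.37 to 0.12 as deposited. *PTPN14*, a phosphatase that binds YAP and is also one of its targets, had 15.8 FPKM in CTRL cells and 12.0 FPKM in pLVX-*RBP4* cells. Its difference of -0.37 lay at the 3.79th percentile of all genes and was the farthest from 0 in the pathway list. The 14-3-3 genes, whose products retain phosphorylated YAP in the cytoplasm, were among the most abundant of this role. *YWHAZ* had 324.7 and 336.3 FPKM, *YWHAH* 184.0 and 199.8 FPKM, and *YWHAB* 141.3 and 145.7 FPKM. *CTNNA1*, which encodes the junction protein alpha-catenin, had 189.6 and 178.7 FPKM. Near-identical copies of such genes can share reads, and how these were divided is not known. Of the angiomotins, which tether YAP to actin and junctions, *AMOTL2* had 22.9 and 22.3 FPKM, *AMOTL1* had 11.2 and 10.3 FPKM, and *AMOT* had 5.53 and 5.24 FPKM.

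As deposited no gene in the remaining roles passed 1.2-fold, beside 19.6% of all genes. Without the highest gene in the common sum *LIMD1* (-0.28), *DCHS1* (-0.35) and *FAT1* (-0.36) were lower past it, beside 26.1% of all genes in either direction. *VGLL4*, which competes with YAP for TEAD factors, had 79.2 FPKM in CTRL cells and 82.3 FPKM in pLVX-*RBP4* cells. Both values were below the sum of the TEAD genes in the same group (94.3 and 90.4 FPKM). Among the LIM proteins, the STRIPAK phosphatase genes and *RASSF1*, the LIM protein gene *LIMD1* had a difference of -0.17, and the most abundant was *PPP2R1A*, a scaffold of protein phosphatase 2A, with 165.6 and 157.3 FPKM. Among polarity genes and atypical cadherins, *DCHS1* was the most abundant with 40.9 and 34.7 FPKM (-0.23), and *FAT1*, of the other class of atypical cadherins, had 27.2 and 22.7 FPKM (-0.25). *PRKCI*, an atypical protein kinase C of the apical polarity complex, had 22.9 and 26.9 FPKM, and its difference of 0.23 was the highest in the pathway list. After rescaling to a common sum its difference was 0.30 and past the limit, beside 22.1% of all genes in either direction. For the turnover of YAP, the casein kinase gene *CSNK1E* had 48.2 and 46.6 FPKM, and the ubiquitin ligase adaptors *FBXW11* and *BTRC* had differences of 0.13 and -0.12.

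A list of 22 target genes of YAP, which includes *CTGF*, *CYR61*, *LATS2*, *AMOTL2* and *PTPN14*, had 14 genes named in the table, all averaging 1 FPKM or more. In the pLVX-*RBP4* group 1 of the 14 was higher and 3 were lower by at least 1.2-fold, 28.6% beside the 19.6% of all genes, and the median difference was -0.05. None passed 1.5-fold, which 2.77% of all genes did. The genes past 1.2-fold went both ways, and 11 of the 14 (78.6%) were below 0, beside 49.8% of all genes. The count was 6 (42.9%) after rescaling to a common sum, beside 35.1% of all genes. It was 13 (92.9%) when that sum left out the highest gene, beside 69.9% of all genes. The median of the list minus that of all genes lay between -0.063 and -0.047 under every scaling.

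*ANKRD1*, a nuclear ankyrin repeat protein often used as a readout of YAP activity, had 27.2 FPKM in CTRL cells and 35.3 FPKM in pLVX-*RBP4* cells. Its difference was 0.36, at the 94.7th percentile of all genes, or 0.25 and inside the limit after rescaling to a common sum without the highest gene. *TGFB2*, a ligand of the TGF-beta family, had 5.96 and 4.15 FPKM, a difference of -0.44 at the 2.54th percentile. *DOCK5*, an exchange factor for the GTPase Rac, had 17.7 and 13.4 FPKM, a difference of -0.38. *PTPN14*, described above, was the third lower gene. *ANKRD1* was therefore on the opposite side from *TGFB2*, *DOCK5* and *PTPN14*.

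The other targets lay inside 1.2-fold as deposited, a limit that 19.6% of all genes passed. Without the highest gene in the common sum *MYOF* (-0.32) and *ASAP1* (-0.34) were lower past it, beside 26.1% of all genes in either direction. Next to *CTGF* and *CYR61* the most abundant was *F3* (tissue factor), the starter of blood coagulation, with 143.8 and 132.0 FPKM and a difference of -0.12. *CCDC80*, a secreted matrix protein, had 121.6 and 120.2 FPKM. *NT5E* (CD73), which makes adenosine at the cell surface, had 101.4 and 110.0 FPKM. *MYOF*, a membrane repair protein, had 79.8 and 69.3 FPKM (-0.20), and *ASAP1*, a regulator of Arf GTPases, had 13.0 and 11.0 FPKM (-0.22). *CRIM1* and *FJX1* differed by -0.02 and 0.04.

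**Figure D5:**
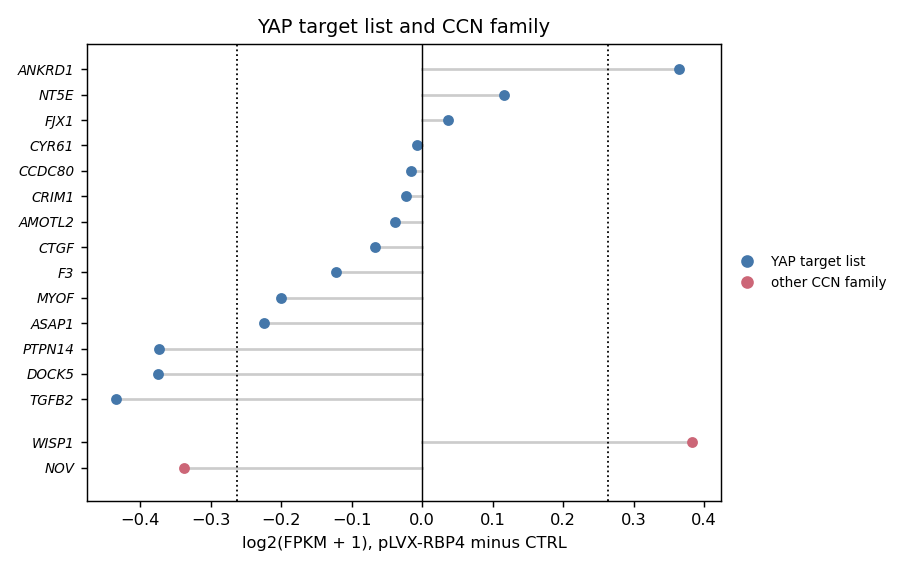
Difference of log2(FPKM + 1), pLVX-RBP4 minus CTRL, of the 14 genes of the YAP target list and of the other CCN genes averaging 1 FPKM or more, with dotted lines at 1.2-fold. ANKRD1 and WISP1 (CCN4) lie past the upper line, TGFB2, DOCK5, PTPN14 and NOV (CCN3) past the lower one, and CTGF and CYR61 lie near 0.

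*CTGF* and *CYR61* belong to the CCN family of 6 secreted proteins, of which 4 were named in the table. The remaining pair, named here after their values were seen, was far less abundant. *NOV* (*CCN3*) had 2.57 FPKM in CTRL cells and 1.83 FPKM in pLVX-*RBP4* cells, a difference of -0.34, and *WISP1* (*CCN4*) had 4.47 and 6.14 FPKM, a difference of 0.38. Both passed 1.2-fold, in opposite directions. In the range of mean FPKM of *NOV*, 1 to 5, 26.3% of all genes passed 1.2-fold in either direction, and in that of *WISP1*, 5 to 20, 18.2% did.

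Markers of cell types were compared in the same way. Of 14 granulosa markers 7 were named in the table, among them *CYP11A1* with 672.9 and 669.4 FPKM and *FSHR* with 9.99 and 8.47 FPKM. None passed 1.2-fold on the FPKM + 1 scale as deposited, beside 19.6% of all genes. Below 0 were 6 of the 7, beside 49.8% of all genes, and 3 after rescaling to a common sum, beside 35.1%. *FST*, the gene of follistatin and the 1 higher of the 7, had 20.5 and 24.7 FPKM, a difference of 0.26 just inside the limit. It was past the limit with a common median (0.28), with a common sum (0.33) and as the log2 ratio without the added 1 (0.27). *CYP19A1*, *AMH* and *FOXL2* were among those not found by name. Of 10 theca or stromal markers 8 were named and 6 had a mean of at least 1 FPKM. Their summed level over the 8 was 1419 FPKM in CTRL cells and 1601 FPKM in pLVX-*RBP4* cells. Of this sum *ACTA2* made up 644.1 and 687.8 FPKM, and *COL3A1* 525.1 and 611.2 FPKM. As deposited 5 of the 6 were higher, beside 50.2% of all genes. *ACTA2* had the opposite sign when the common sum left out the highest gene. *PDGFRA* was lower, with 12.6 and 11.2 FPKM, a difference of -0.16. *DCN* and *LUM* passed 1.2-fold as deposited, 33.3% of the 6 beside 19.6% of all genes. Without the highest gene in the common sum *DCN* was inside the limit. *LHCGR* was below 1 FPKM in both groups and *INSL3* was listed at 0 in CTRL cells. Stromal cells also express *CTGF* and *CYR61*, and the part of these markers in the values above was not tested. Immune, endothelial and oocyte markers summed to 49.5, 20.4 and 3.40 FPKM in CTRL cells and to 55.4, 19.5 and 3.63 FPKM in pLVX-*RBP4* cells. *PTPRC*, which marks leukocytes, had 0.229 and 0.166 FPKM.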

How the data were processed

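RNA of 3 CTRL and 3 pLVX-*RBP4* samples was sequenced. The authors filtered the reads, aligned them to Sscrofa10.2 with TopHat2 and ran Cuffdiff of Cufflinks, and deposited 1 FPKM value per gene and group. Versions and the annotation release were not given in the sources used here, and combining the libraries removed the spread between replicates.

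Gene names came from a table of Ensembl names, which paired 10489 of 17950 genes with a symbol. Coordinates and sequences were not used here, and 1 pathway gene is counted in the list but not reported here. Genes averaging 1 FPKM or more were kept, log2(FPKM + 1) was taken, and a size limit of 1.2-fold was applied. With 1 value per group no test was run and no p-value is given. Alternatives were pseudocounts of 0.1 and 0.01, other filters (none, 5 FPKM), a limit of 1.5-fold and scaling to a common median, upper quartile or sum. The log2 ratio without pseudocount and the sum without the highest gene were added after seeing the data.

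The genes, the lists and the named genes (all 8, each listed gene past 1.2-fold, and the most abundant per role) were chosen with earlier results of these data known. Further genes named from the lists were picked after their values were seen. Python 3.11.15, numpy 2.4.6 and pandas 2.3.3 were used.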

Additional observations from a re-analysis of the deposited data

How the results depend on the processing

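With 1 value per group, no replicate could be left out, and no paired analysis was possible because each group is represented by 1 combined value. Shifts of 0.1 or more in a log2 value, or of over 1.5 times in a count, were looked for under each alternative. Pseudocounts of 0.1 and 0.01, no pseudocount, no filter, a mean of at least 5 FPKM, and a common median or upper quartile moved none of the counts and medians of the 8 genes, the pathway list and the target list by that much. With a common median 3 pathway genes passed, without *WWC3*. After rescaling to a common sum, 2 pathway genes instead of 4 passed 1.2-fold, 1 higher (*PRKCI*) and 1 lower (*PTPN14*), beside 22.1% of all genes. With a limit of 1.5-fold, 0 pathway genes and 0 target genes passed in either direction, beside 2.77% of all genes. With the highest gene left out of the sum, which shifted the median of all genes by -0.11, 1 of the 8 genes passed 1.2-fold, the lower *TEAD3*, and the median of the 8 was -0.18. In that setting 11 pathway genes were lower, with a median of -0.20, and 5 target genes were lower and 0 higher, with a median of -0.17, beside 26.1% of all genes past the limit in either direction. Combined group values limit every difference here, since a difference of the size seen for the 8 genes cannot be set against counting or replicate error.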
